A study of Boehmeria nivea with 6 samples.

Results

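A set of 32 ramie genes was abundant in both root and stem and scarce in leaf, in a cultivar and in a wild accession alike. The genes were chosen from 20693 listed genes by their FPKM values (fragments counted on a gene, scaled to its length and to the mapped fragments of the library), after 1 was added to each value. In each variety, root and stem each had to reach at least 8 times the leaf value, with root and stem less than 4-fold apart. The choice therefore used all 6 libraries, and 0.155% of the listed genes met it. Organ differences of these genes are given below as a description, without a test.

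Ramie (Boehmeria nivea) is a perennial of the nettle family grown for the long bast fibres of its stem. RNA came from stem, root and leaf of the cultivar ZSZ1 and of the wild tenacissima accession QYZM, all plants being 30 days old. Every variety and organ was represented by 1 library, with no treatment, and how many plants went into a library is not stated in the labels. The 6 groups were ZSZ1 stem, ZSZ1 root, ZSZ1 leaf, QYZM stem, QYZM root and QYZM leaf.

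Root and stem are the axial organs of a plant. Both carry water and sugars along their length in xylem and phloem, and both can thicken through a vascular cambium that lays down lignified wood inward and phloem outward. The leaf blade is built mainly of photosynthetic mesophyll, with xylem and phloem confined to its veins. In whole organs, a larger share of cells of one type and more RNA per such cell cannot be told apart. The identifiers of the 32 genes were not paired with names or products in the sources used here, so their functions are not described and no sequence is shown.

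Column totals ran between 306497 FPKM in ZSZ1 leaf and 433435 FPKM in QYZM leaf. Read numbers were not known. The steps between values below 0.2 FPKM placed the libraries at 0.905 to 1.14 times their mean depth, if whole fragments were counted, but gave no counts, so a value of 0 is reported as listed at 0. Across the 14941 tested genes, which reached 1 FPKM in 2 or more libraries, stem and root of QYZM were closer (r = 0.868 across genes) than stem and root of ZSZ1 (r = 0.751). The correlation between the root libraries of ZSZ1 and QYZM was 0.873, hardly above that of root and stem within QYZM. All 32 genes passed that filter. Leaving the QYZM root library out of the rule gave 47 genes. They include all 32 by construction, since leaving out a library only drops conditions of the rule.

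The same rule turned to other organ pairs found fewer genes. Leaf and stem together, low in root, gave 7 genes, and leaf and root together, low in stem, gave 0. Leaf values as deposited were low for genes in general. Over all tested genes the median log2(FPKM + 1) of stem minus leaf and of root minus leaf was 0.74 and 0.72 in ZSZ1, and 0.38 and 0.38 in QYZM. Median-of-ratios scaling, which brings the typical gene to the same level in every library, left 17 of the 32 genes in place and added none. It gave 7 genes for leaf with stem and 3 for leaf with root. The cause of these shifts was not tested.

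In root and stem the 32 genes were well above the typical tested gene by their median, though not each by itself. Their median was 39.5 FPKM in ZSZ1 stem and 41.6 FPKM in ZSZ1 root, where all tested genes had medians of 9.58 and 8.53 FPKM. In QYZM their median was 64.4 FPKM in stem and 58.4 FPKM in root, where all tested genes had medians of 10.4 and 9.64 FPKM. In leaf the order was the other way, with a median of 1.07 FPKM in ZSZ1 and 1.23 FPKM in QYZM for the 32 genes, and 5.49 and 8.22 FPKM for all tested genes. The lowest root or stem value of any of the 32 was 7.25 FPKM. A floor of 7 FPKM follows from the rule, since a gene at 0 in leaf needs at least that much elsewhere.

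**Figure D1:**
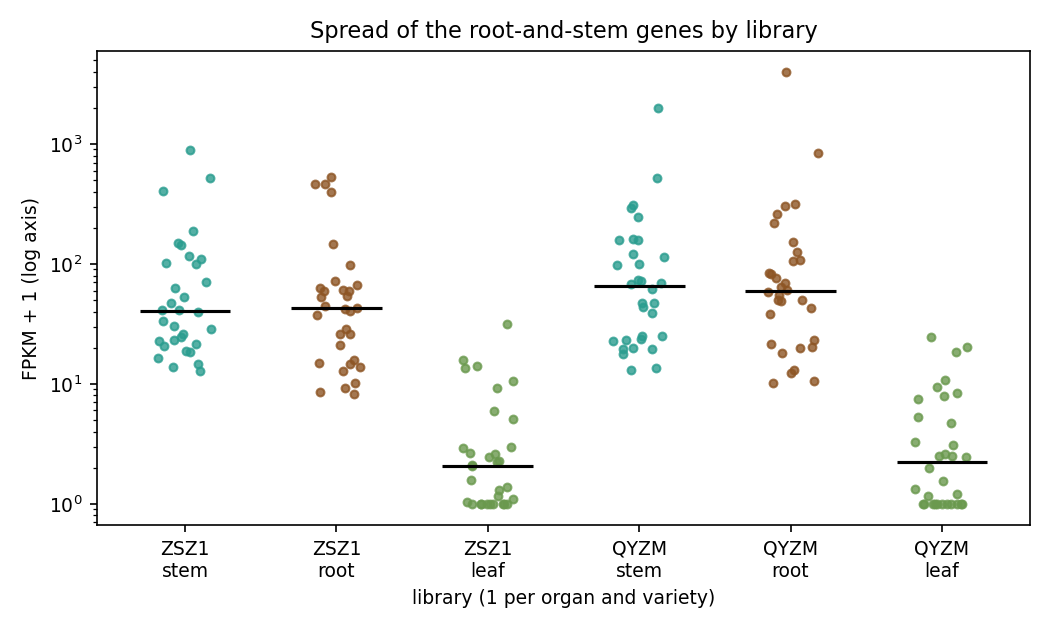
Each point is 1 of the 32 genes, plotted as FPKM + 1 on a log axis for the 6 libraries, with a bar at the median. Root and stem points start at 7.25 FPKM or above, and leaf points reach no higher than 30.4 FPKM in ZSZ1 and 23.7 FPKM in QYZM.

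The genes together held 0.87% of the summed FPKM of ZSZ1 stem and 0.81% of ZSZ1 root, against 0.0367% of ZSZ1 leaf. In QYZM they held 1.28% of stem and 1.89% of root, against 0.0277% of leaf. Much of the QYZM root share was 1 gene, Bnt11G016185, with 1.03% of that library. Without it the share was 0.639% in ZSZ1 stem, 0.665% in ZSZ1 root, 0.766% in QYZM stem and 0.862% in QYZM root.

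Bnt11G016185 was the most abundant of the set. It stood at 896 FPKM in ZSZ1 stem, 533 FPKM in ZSZ1 root and 14.8 FPKM in ZSZ1 leaf, and at 1995 FPKM in QYZM stem, 3957 FPKM in QYZM root and 19.1 FPKM in QYZM leaf. Its leaf values were thus similar in both varieties, while its root values were far apart. Bnt06G010217 came next, at 517 FPKM in ZSZ1 stem, 466 FPKM in ZSZ1 root and 30.4 FPKM in ZSZ1 leaf, and at 306 FPKM in QYZM stem, 219 FPKM in QYZM root and 23.7 FPKM in QYZM leaf. It had the highest leaf value of the set in both varieties, so a high level and a strict absence from leaf did not go together in this gene.

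The difference over leaf, averaged over both varieties and both organs on the log2(FPKM + 1) scale, was largest for Bnt13G018374 (6.65) and Bnt01G001412 (6.35). Bnt01G001412 was listed at 0 in both leaves. It stood at 108 FPKM in ZSZ1 stem and 61.9 FPKM in ZSZ1 root, and at 99.4 FPKM in QYZM stem and 63.4 FPKM in QYZM root, which made it one of the steadiest genes between varieties. Bnt13G018374 owed its place to QYZM, where it stood at 519 FPKM in stem and 840 FPKM in root against 0.204 FPKM in leaf. In ZSZ1 it stood at 21.8 FPKM in stem and 13.8 FPKM in root and was listed at 0 in leaf. Where a leaf value is 0, these differences depend on the 1 that was added.

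Leaf values were not equally low across the set. A total of 8 genes were listed at 0 in both leaves, and their root and stem values ran between 7.25 and 108 FPKM. A further 4 were listed at 0 in 1 leaf and stood between 0.0436 and 0.386 FPKM in the other. Leaf values below 1 FPKM in both varieties were found for 15 of the 32. At the other end, 5 genes had at least 5 FPKM in both leaves, and each of them stood at 97.8 FPKM or more in every root and stem library. High root and stem values are required by the 8-fold rule where leaf is that high, so this link follows largely from the choice. As a percent of the mean of stem and root, leaf stood at a median of 2.08% in ZSZ1 (highest 9.01%) and 1.41% in QYZM (highest 9.04%). Listed zeros next to high values were rare in the table: 2 genes were at 0 in 1 library, QYZM leaf, with at least 20 FPKM in the 5 others, beside 1544 genes with at least 20 FPKM in all 6. Of 3694 genes with at least 20 FPKM in QYZM leaf, 8 were at 0 in ZSZ1 leaf. Of 2619 such genes in ZSZ1 leaf, 3 were at 0 in QYZM leaf. The same count in stem and root libraries ran between 2 (QYZM root) and 13 (ZSZ1 root).

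**Figure D2:**
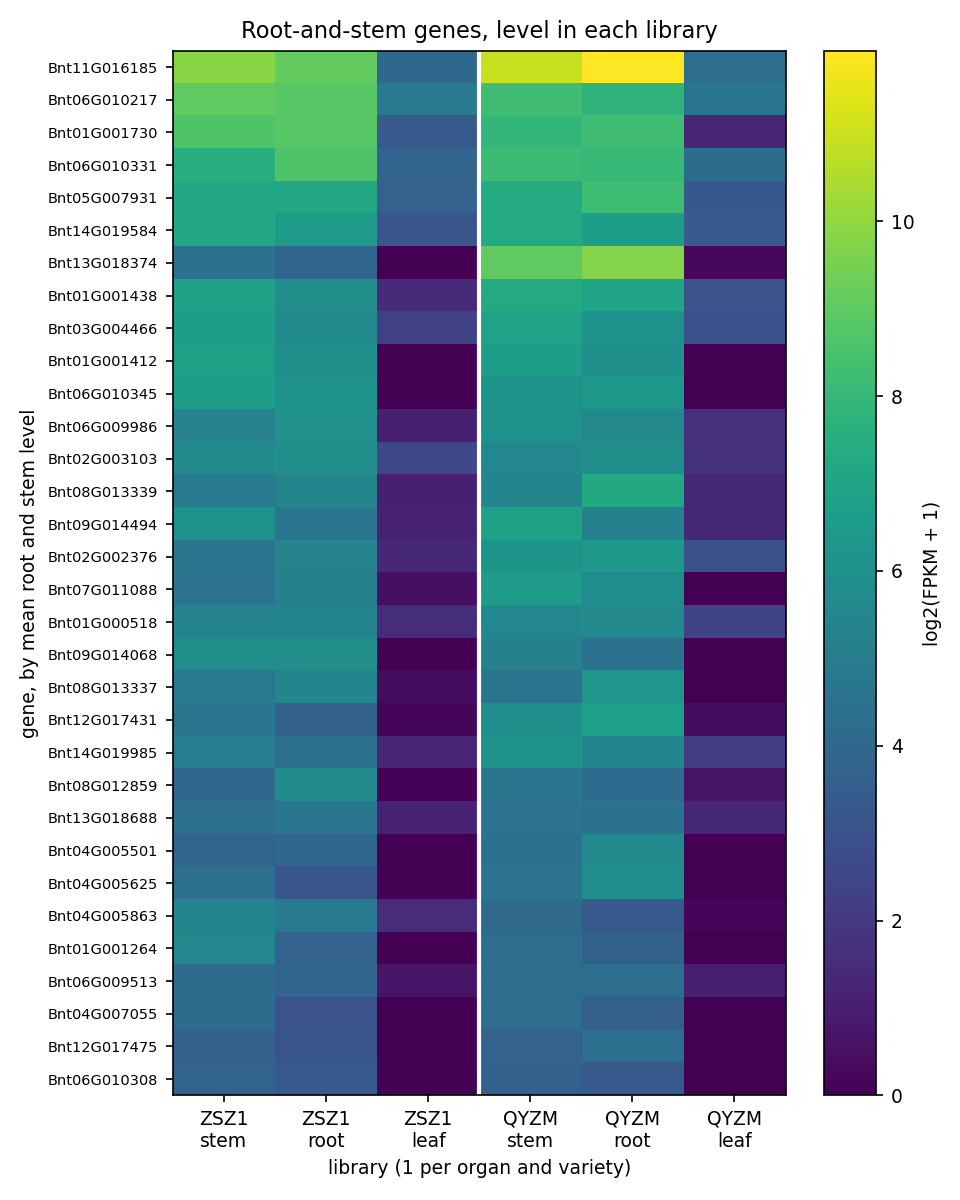
Colour gives log2(FPKM + 1) of the 32 genes (rows, by mean root and stem level) in the 6 libraries (columns). In every row the leaf cell is darker than the stem and root cells of the same variety, Bnt11G016185 is brightest in QYZM root at 3957 FPKM, and Bnt13G018374 is bright in QYZM stem and root alone.

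The 8-fold threshold passed through a continuous range. Just inside it lay Bnt04G007055, whose smallest ratio over leaf was 8.25, and Bnt12G017475, at 8.55. Both were listed at 0 in both leaves and owed the small ratio to ZSZ1 root, at 7.25 and 7.55 FPKM. Just outside lay Bnt02G002916, at 7.99 in ZSZ1 stem, and Bnt01G001409, at 7.97 in QYZM stem. Bnt02G002916 stood at 419 FPKM in ZSZ1 stem, 1136 FPKM in ZSZ1 root and 51.5 FPKM in ZSZ1 leaf, and at 355 FPKM in QYZM stem, 176 FPKM in QYZM root and 0 as listed in QYZM leaf. It was more abundant than most of the set and missed it by the leaf value of 1 variety. A 4-fold threshold would have taken 151 genes and a 16-fold threshold 7.

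The rule was then applied in one variety alone and the chosen genes were read in the other variety, whose libraries that choice had not used. In ZSZ1 alone 69 genes met it, and in QYZM alone 116. The 32 shared genes were 46.4% of the ZSZ1 list and 27.6% of the QYZM list, where 0.776% of tested genes met the rule in QYZM and 0.462% in ZSZ1. Of the 69 genes chosen in ZSZ1, 62 had both stem and root at least 2-fold above leaf in QYZM (89.9%, against 13.8% of tested genes) and 52 at least 4-fold (75.4%, against 2.90%). Of the 116 chosen in QYZM, 90 had both organs at least 2-fold above leaf in ZSZ1 (77.6%, against 22.3% of tested genes) and 70 at least 4-fold (60.3%, against 2.88%). Tested genes include ones below the floor of 7 FPKM, which cannot meet the rule, whereas listed genes reached it in the variety of choice. The shares of a list and of tested genes are thus not like for like.

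The values in the variety of choice are large by selection, which alone can make those in the other variety smaller. The median stem minus leaf difference of the ZSZ1 list was 3.99 (log2) in ZSZ1 and 3.66 in QYZM, and that of the QYZM list was 4.02 in QYZM and 3.14 in ZSZ1. The bound between stem and root removed few genes by itself. Of the ZSZ1 list, 35 genes met the 8-fold part of the rule in QYZM, and 32 of them also met the bound. Of the QYZM list, 37 met the 8-fold part in ZSZ1, and 32 of them also met the bound. Counted together with genes that missed 8-fold, 24 genes of the QYZM list had root at least 4-fold above stem in ZSZ1. A further 16 had stem at least 4-fold above root there, whereas in QYZM the counts for the ZSZ1 list were 4 and 6. Stem and root were also farther apart in ZSZ1 for genes in general. Root was at least 4-fold above stem in 4.14% of tested genes in ZSZ1 and 1.85% in QYZM, and stem at least 4-fold above root in 7.10% in ZSZ1 and 2.57% in QYZM. Whether these counts differ by more than the spread between libraries was not tested, since each organ of a variety had 1 library.

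In the ZSZ1 list, stem or root was not above leaf in QYZM for 3 of 69 genes, beside 41.7% of all tested genes, and in the QYZM list this was so in ZSZ1 for 9 of 116, beside 34.8%. At least 2-fold below leaf were 2 genes of the ZSZ1 list in QYZM (17.9% of tested genes) and 1 gene of the QYZM list in ZSZ1 (16.04%). These 3 are named here because of their values. Bnt06G009161 was listed at 0 in ZSZ1 leaf, with 167 FPKM in ZSZ1 stem and 99.99 FPKM in ZSZ1 root. In QYZM it reached 2777 FPKM in leaf, with 205 FPKM in stem and a listed 0 in root. Bnt06G009889 was likewise listed at 0 in ZSZ1 leaf, with 41.3 FPKM in stem and 22.0 FPKM in root of ZSZ1, whereas QYZM had 164 FPKM in leaf, 38.4 FPKM in stem and 10.3 FPKM in root. Bnt03G004545, from the QYZM list, stood in ZSZ1 at 0.644 FPKM in stem, 108 FPKM in root and 8.28 FPKM in leaf, and in QYZM at 68.2 FPKM in stem, 156 FPKM in root and a listed 0 in leaf.

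**Figure D3:**
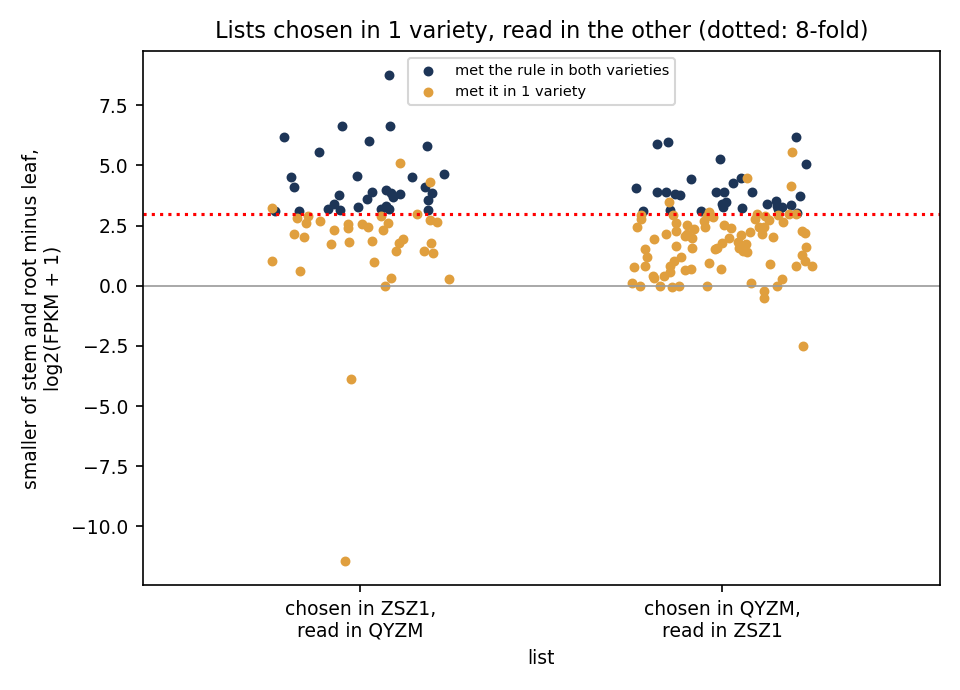
Each point is a gene that met the rule in 1 variety, at the smaller of its stem minus leaf and root minus leaf differences on the log2(FPKM + 1) scale in the other variety. Of 69 genes chosen in ZSZ1 62 lie at or above 1 (2-fold), as do 90 of 116 chosen in QYZM, and Bnt06G009161 lies lowest at -11.44.

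Stem and root were less than 4-fold apart by choice. In ZSZ1 the stem minus root difference had a median of 0.39 (log2) and ran between -1.69 and 1.80, and in QYZM it had a median of 0.13 and ran between -1.81 and 1.56. Both organs lay within 2-fold of each other in both varieties for 22 of the 32 genes (68.8%), beside 66.0% of all tested genes. In ZSZ1 25 genes were within 2-fold, where 71.0% of all tested genes were, and in QYZM 27 were, where 82.5% were. These shares were near those of all tested genes, and the rule's bound limits the ranges.

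The side to which a gene leaned was shared by the varieties in 20 of the 32 genes. Stem was the higher organ in both varieties for 12 genes and the lower in both for 8. For 7 genes stem was higher in ZSZ1 and lower in QYZM, and for 5 the reverse, which makes 12 of 32 (37.5%) beside 28.7% of all tested genes. In 11 of these 12 the difference was at least 0.1 (log2) in each variety. Across the 32 genes the stem minus root differences of the 2 varieties had a Pearson correlation of 0.20 (Spearman 0.22), beside 0.60 over all tested genes. Both describe genes that share their libraries, and only the values of the 32 were bounded by the rule.

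Bnt09G014494 leaned most to stem and was the 1 gene at least 2-fold higher there in both varieties. It stood at 70.1 FPKM in ZSZ1 stem against 25.03 FPKM in ZSZ1 root, and at 113 FPKM in QYZM stem against 37.4 FPKM in QYZM root. Bnt01G001264 followed, with 46.6 FPKM in ZSZ1 stem against 12.7 FPKM in ZSZ1 root, and 18.7 FPKM in QYZM stem against 12.0 FPKM in QYZM root. Its lean to stem was mostly that of ZSZ1.

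No gene was at least 2-fold lower in stem in both varieties. The strongest lean to root belonged to Bnt08G013339 and Bnt08G013337, whose identifiers lie 2 steps apart. Bnt08G013339 stood at 29.6 FPKM in ZSZ1 stem against 42.0 FPKM in ZSZ1 root, and at 42.5 FPKM in QYZM stem against 152 FPKM in QYZM root. Bnt08G013337 stood at 27.4 FPKM in ZSZ1 stem against 43.5 FPKM in ZSZ1 root, and at 24.0 FPKM in QYZM stem against 74.7 FPKM in QYZM root. Both had their highest value in QYZM root and were low in leaf, between a listed 0 and 1.52 FPKM. If neighbouring genes are near-identical copies, reads could have been split between them in the authors' counting, which the values do not show.

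**Figure D4:**
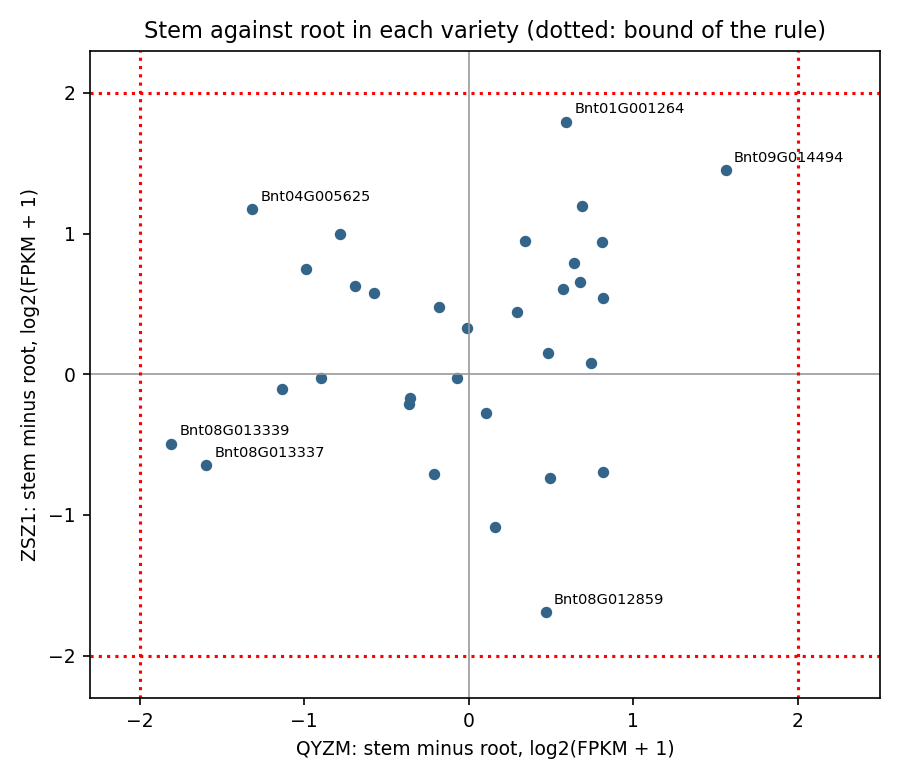
Stem minus root difference on the log2(FPKM + 1) scale of each of the 32 genes in ZSZ1 (vertical) and QYZM (horizontal), with dotted lines at the 4-fold bound of the rule. Points fall on either side of 0 on both axes: 12 genes lean to stem in both varieties and 8 to root in both.

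The rule did not set cultivar against wild accession, so that difference could be tested, but membership limits it. Root and stem had to reach at least 7 FPKM in both varieties, so a gene absent from 1 variety could not be chosen. Leaf had to be low against root and stem in both varieties, which also limits the leaf difference that enters the fit. The linear model in limma held organ and variety terms and was fitted to log2(FPKM + 1) of all 14941 tested genes. Genes were called when 2-fold or more apart with a p below 0.05 after Benjamini-Hochberg adjustment. None of the 32 genes was called, where 0.663% of all tested genes were, and the smallest adjusted p among them was 0.0774 (limma). At an unadjusted p below 0.05 (limma) stood 10 of the 32 (7 lower and 3 higher in ZSZ1), or 31.2%, against 15.4% of all tested genes. The rule's bound on stem and root limits part of the error term for the 32 genes alone. Its floor of 7 FPKM in root and stem also keeps low genes out of the set. The shares of the 32 genes and of all tested genes are thus not like for like. The median difference was -0.26 for the 32 genes and -0.20 for all tested genes. Lower in ZSZ1 were 21 of the 32, beside 71.3% of all tested genes. The error term has 2 residual degrees of freedom, moderated by 3.71 prior ones, and mixes any organ-by-variety difference with library noise. Whatever the 3 libraries of a variety share in growth or handling cannot be told apart from variety.

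Organ by organ, most of the 32 genes stood lower in ZSZ1 in stem and in root. In stem 22 and in root 23 of the 32 were lower in ZSZ1, where 55.4% and 58.8% of all tested genes were. In leaf 8 of the 32 were listed at 0 in both varieties. Of the other 24, 16 were lower in ZSZ1 (66.7%), beside 80.9% of the tested genes that differed in leaf. The median ZSZ1 minus QYZM difference of the 32 genes was -0.18 in stem and -0.41 in root, beside -0.06 and -0.13 for all tested genes. In leaf it was -0.08 with the 8 genes at 0 counted, beside -0.41 for all tested genes, and leaf values this low are compressed by the added 1. The shift of all genes in leaf was that of the values as deposited. The median of all tested genes was -0.02 with every library at a total of 1000000. It was 0.03 under both median-of-ratios scaling and quantile normalization, which remove such a shift whatever its origin. The cause of the shift was not tested. In these 3 settings the median of the 32 genes was 0, which is the value of the 8 genes listed at 0 in both leaves. At least 4-fold lower in ZSZ1 were 2 of the 32 in stem (2.11% of tested genes) and 4 in root (2.94% of tested genes). At least 4-fold higher were 0 in stem (0.95%) and 0 in root (1.49%), while 1 was so in leaf (0.569%), Bnt01G001730, at 9.53 FPKM in ZSZ1 leaf and 1.47 FPKM in QYZM leaf. At least 2-fold higher were 2 of the 32 in stem (4.32% of tested genes), 4 in root (6.4%) and 2 in leaf (2.03%), and at least 2-fold lower were 6 in stem (7.56%), 11 in root (12.9%) and 2 in leaf (15%). Each of these counts sets a single library against another, so no replicate stands behind it.

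Bnt13G018374 differed most. Its 21.8 FPKM in ZSZ1 stem stood against 519 FPKM in QYZM stem, and its 13.8 FPKM in ZSZ1 root against 840 FPKM in QYZM root. The ZSZ1 minus QYZM differences were -4.51 in stem, -5.83 in root and -0.27 in leaf, where the gene was near or at 0 in both varieties. The fit over 3 organs put the difference at -3.54 ± 1.01 (SE; limma adjusted p = 0.217), with the leaf value entering both the mean and the error. The fit without QYZM leaf, in which stem and root alone decide the difference, put it at -5.17 ± 0.41 (SE; limma adjusted p = 0.355). That fit has 1 residual and 2.4 prior degrees of freedom and called 0 of all tested genes. At an unadjusted p below 0.05 (limma) stood 9.32% of all tested genes, beside 10 of the 32 (31.2%). Its error rests on how far the variety differences of stem and root part, which the rule bounds for the 32 genes alone. These shares are thus not like for like.

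Bnt12G017431 had the next largest difference in root, at 11.9 FPKM in ZSZ1 against 106 FPKM in QYZM (-3.05), with 24.8 FPKM in ZSZ1 stem against 61.3 FPKM in QYZM stem (-1.27). Bnt11G016185, the most abundant gene, differed by -1.15 in stem and -2.89 in root. The fourth gene past 4-fold in root was Bnt04G005625, at 8.19 FPKM in ZSZ1 and 57.5 FPKM in QYZM. In stem the second gene past 4-fold was Bnt07G011088, at 22.1 FPKM in ZSZ1 and 96.6 FPKM in QYZM, while its root values, 36.3 FPKM in ZSZ1 and 54.3 FPKM in QYZM, lay nearer to each other. None of these was called in the fit over 3 organs.

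On the higher side the differences were smaller. Bnt04G005863 stood at 40.4 FPKM in ZSZ1 stem against 16.8 FPKM in QYZM stem and at 27.5 FPKM in ZSZ1 root against 9.09 FPKM in QYZM root. Its leaf values were 1.89 FPKM in ZSZ1 and 0.162 FPKM in QYZM, so it was higher in ZSZ1 in 3 of 3 organs (1.35 ± 0.22, SE; limma adjusted p = 0.0846). Bnt08G012859 had the largest ZSZ1 minus QYZM difference in root, at 52.5 FPKM in ZSZ1 against 17.1 FPKM in QYZM, yet stood at 15.5 FPKM in ZSZ1 stem against 24.1 FPKM in QYZM stem. Bnt01G001264 had the largest in stem (1.28), with 12.7 FPKM in ZSZ1 root and 12.0 FPKM in QYZM root.

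The smallest adjusted p belonged to Bnt02G002376, named for that reason after its values were seen. It stood at 23.6 FPKM in ZSZ1 stem, 39.2 FPKM in ZSZ1 root and 1.59 FPKM in ZSZ1 leaf, against 71.1, 82.5 and 6.89 FPKM in stem, root and leaf of QYZM. The gene was lower in ZSZ1 in 3 of 3 organs by similar steps (-1.40 ± 0.22, SE; limma adjusted p = 0.0774). Of the alternatives run, those that left out a root library were the ones that called it, with an adjusted p of 0.0429 without QYZM root and 0.0431 without ZSZ1 root (limma). Those fits called 287 and 276 of all tested genes, against 99 with all libraries, and the fits without either leaf library called 0. Both fits without a root library rest on the same stem and leaf libraries.

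**Figure D5:**
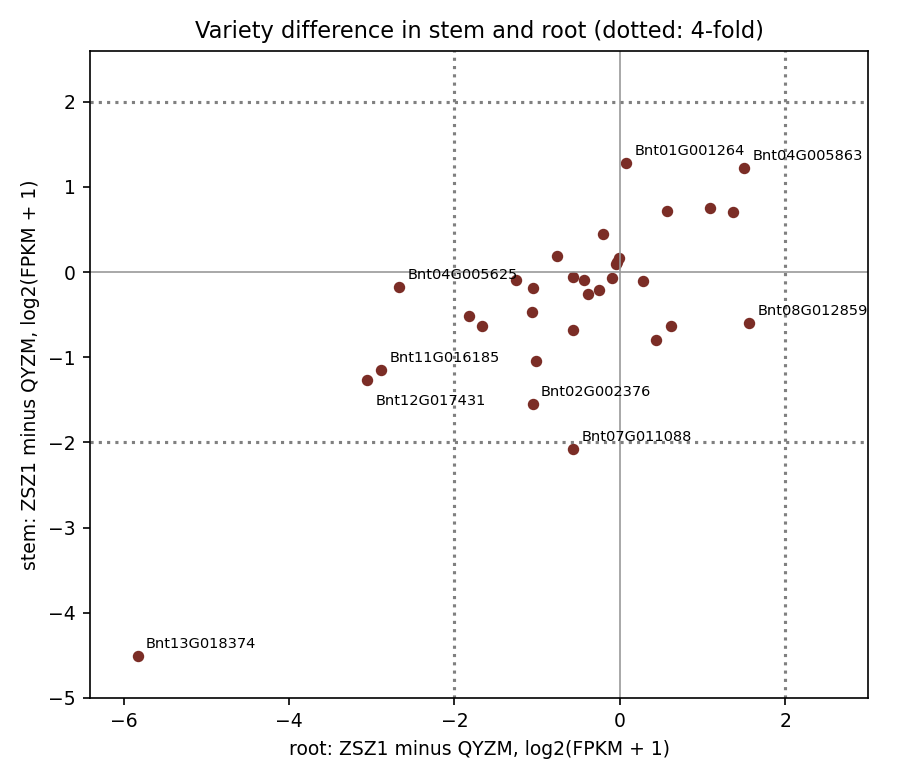
ZSZ1 minus QYZM difference on the log2(FPKM + 1) scale of each of the 32 genes in stem (vertical) and root (horizontal), with dotted lines at 4-fold. Bnt13G018374 lies apart at -4.51 and -5.83, 18 genes are lower in ZSZ1 in both organs and 5 are higher in both.

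The bound on stem and root in each variety limits how far the variety differences of the 2 organs can part, so what follows is a description. Of the 32 genes, 18 were lower in ZSZ1 in both organs and 5 higher in both, while 5 were lower in root alone and 4 lower in stem alone. The direction was thus shared by 71.9% of the 32 genes, beside 59.5% of all tested genes. Across the 32 genes the stem and root differences had a Pearson correlation of 0.74 (Spearman 0.58), and 0.53 without Bnt13G018374, beside 0.23 over all tested genes, to which no bound applied. The mean root and stem levels of the 2 varieties had a Pearson correlation of 0.75 (Spearman 0.71), and 0.87 without the same gene. These describe 32 genes from shared libraries and carry no test.

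The identifiers, which the rule did not use, spread the genes over 13 of 14 numbered prefixes. Prefix 06 held 6 of the 32 (0.326% of its listed genes) and prefix 01 held 5 (0.251%), while prefix 10 and the prefix Un held 0. No pair of the 32 had consecutive identifiers. Within 50 identifier steps lay 6 pairs made of 9 genes, of which Bnt08G013337 and Bnt08G013339 were the closest. Coordinates were not used here, so a step between identifiers is not a distance.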

How the data were processed

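The authors deposited FPKM values of 20693 genes for 6 libraries. Bowtie2 and RSEM appear, with neither version nor role, in the submitters' processing notes. The genome, gene models and strand handling behind them were not given in the sources used here. FPKM are shares of a library, so a gene that takes more lowers all others. Values were used as deposited, as log2(FPKM + 1), which understates differences of low genes.

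The fit used limma 3.58.1 in R 4.3.3 (trended moderation, 6 libraries, genes reaching 1 FPKM in 2 or more) and was tested on simulated data. The simulated noise was independent between libraries and of the size that the fit itself estimated. The simulation therefore cannot speak for the p-values of the real libraries. Nothing in the labels gives separate plants, and each organ of a variety had 1 library, so no spread between replicates could be measured. The p-values rest on how far the variety difference parts between organs. That mixes organ-by-variety difference with library noise, which may be technical. Other values came from Python 3.11.15 with pandas 2.3.3, scipy 1.17.1 and numpy 2.4.6, and the plots from matplotlib 3.10.9. Relative depth came from 15 library pairs.

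The genes, lists and comparisons were chosen with earlier results of these data known. Named genes were the 2 highest in level and in difference over leaf, the 2 at each end of the stem minus root difference and of the variety difference in root and in stem, and the 2 on each side of the threshold. Genes named for other reasons are said to be so, or complete a count. Gene lists needed names and were not run. Alternatives changed the pseudocount, filter, scaling, thresholds, moderation, the organ term and each library.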

Additional observations from a re-analysis of the deposited data

Results flagged for a closer look

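Bnt04G005625 was picked out because its stem minus root difference was at least 2-fold in opposite directions in the 2 varieties. The difference was 1.17 (log2) in ZSZ1, at 19.7 FPKM in stem and 8.19 FPKM in root, and -1.32 in QYZM, at 22.5 FPKM in stem and 57.5 FPKM in root. The stem values were thus close and the root values were not. The gene was listed at 0 in both leaves. The difference between the varieties was not tested, since each organ of a variety had 1 library.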

How the results depend on the processing

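The number of genes that met the rule moved with its settings. It was 151 at a fold of 4, 7 at a fold of 16, 108 at a pseudocount of 0.1, 8 at a pseudocount of 5, 58 at a total of 1000000, 17 under median-of-ratios scaling and 21 under quantile normalization, and ran between 41 and 76 with 1 library left out (69 without ZSZ1 stem, 61 without ZSZ1 root, 76 without ZSZ1 leaf, 59 without QYZM leaf). Leaving out a library drops conditions of the rule, which can only add genes. The cause of the other shifts was not tested. The count of the 32 genes called between varieties was 0 in 16 of 18 alternatives and ran between 0 and 1 with 1 library left out. Not all of the 16 carry weight. The fits without a filter on low values and without either leaf library called 0 of all tested genes. A fold threshold of 4 can only remove calls. Genes at least 4-fold apart between varieties numbered 1 in stem at a pseudocount of 5 and 1 under median-of-ratios scaling. In leaf they numbered 5 at a pseudocount of 0.1, 0 at a pseudocount of 5 and 2 at a total of 1000000. At 2-fold they numbered 8 in stem, 15 in root and 4 in leaf. Under median-of-ratios scaling the median variety difference in root was -0.29, and quantile normalization gave a median stem minus root difference of 0.28 in ZSZ1. The difference of Bnt08G012859 over 3 organs, 0.15 with all settings as above, turned to -0.24 at a pseudocount of 0.1 and ran between -0.55 (without either root library) and 0.53 with 1 library left out. No pairing beyond organ was possible, because each organ of a variety had 1 library and the labels do not pair plants. The organ term already matches the varieties by organ. Read depth was not known, so what a listed 0 in leaf allows cannot be given.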
